A study of Mus musculus with 2 samples.

Results

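Transcripts of 7 cathepsins (Ctsa, Ctsb, Ctsc, Ctsd, Ctsl, Ctss and Ctsz) and of 3 cystatins (Cst3, Cst7 and Cstb) were examined cell by cell in mouse optic nerve macrophages and microglia. The 10 genes were chosen by name from the 31053 gene rows of the deposited table, and each had 1 row. The injured library came from optic nerves of wildtype 129S1/SvlmJ mice of both sexes whose nerve was crushed at 8 weeks of age and taken 2 weeks later. The uninjured library came from nerves of mice of the same strain and genotype at 10 weeks of age, with no crush. The age of 10 weeks at collection is from the series' design text, while the source label gives a younger age. Both were 10x Genomics 3' droplet libraries, and the labels do not say how many animals gave each. There was 1 library per group, so the differences given here lack any check by replicates and were not tested.

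Cathepsins are the proteases of the lysosome, where phagocytes break down what they have engulfed, such as myelin debris. Most belong to the papain family of cysteine proteases, while cathepsin D is an aspartic and cathepsin A a serine enzyme. Cystatins are tight-binding inhibitors of the cysteine cathepsins: cystatin C (Cst3) is secreted, cystatin F (Cst7) acts inside the lysosomes of immune cells, and stefin B (Cstb) lies in the cytosol.

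The injured library comprised 727 cells with 3697992 transcripts counted by their unique molecular identifiers (UMIs), and the uninjured library 51 cells and 87499 UMIs. No cell barcode occurred in both. Median depth was 1123 and 888 UMIs per cell. One uninjured cell of 11100 UMIs stood apart, with 91.8% of its UMIs from haemoglobin genes and 0 UMIs of all 10 genes. All 15 markers of microglia and macrophages were seen in both libraries, which summed after injury to 49262 UMIs per 1000000 (CPM), against 27509 CPM without injury. The 8 myelin markers summed to 1185 and 8617 CPM, and their part in the results was not tested.

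In the uninjured library the inhibitor led: Cst3 was its second most abundant gene, while the leading cathepsins were Ctss, at rank 20, and Ctsd, at rank 32. In the injured library proteases stood beside it: Ctsd ranked 5, Cst3 8, Ctsb 11, Ctss 15 and Ctsz 28 among all genes. By the rule of size used here, a 1.5-fold difference after adding 10 CPM to both levels, 7 of the 10 genes were higher in the injured library (Ctsa, Ctsb, Ctsd, Ctsl, Ctsz, Cst7 and Cstb), 1 was lower (Cst3), and Ctsc and Ctss lay between. Of all 4021 genes found in 10% or more of either library's cells, 32.8% were higher and 21.8% lower by the same rule, and all 10 genes passed that filter. The median log2 ratio was 1.94 over the 10 genes and 0.17 over the 4021. Without mitochondrial, ribosomal protein and haemoglobin genes in the totals, 1072 of 3923 genes were higher and 1143 lower, against 1317 and 876 of 4021 before, and the same 7 genes were higher and Cst3 lower.

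Cathepsin D, the main aspartic protease of the lysosome, is encoded by Ctsd on chromosome 7 (142375911 to 142388038, minus strand of mm10). It was the most abundant cathepsin transcript after injury, at 14034 CPM (13914 to 14156, 51899 UMIs), against 3177 CPM (2815 to 3573, 278 UMIs) in the uninjured library. All intervals here are exact 95% intervals and cover counting error only. The level was thus 4.42-fold higher (3.93 to 4.99), and 2.90-fold if every cell had the same weight. In both libraries Ctsd was thus among the leading cathepsins. The ratio was 3.86 without the haemoglobin-rich cell, which held no Ctsd, and 5.14 without the uninjured cell that held most Ctsd.

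Among the cysteine proteases, Ctsb (chromosome 14, 63122462 to 63145923, plus strand), which encodes the abundant endo- and exopeptidase cathepsin B, differed most. It stood at 7607 CPM (7518 to 7697) in the injured and 1337 CPM (1106 to 1603, 117 UMIs) in the uninjured library, 5.69-fold higher (4.74 to 6.88). Cathepsin L, an endopeptidase encoded by Ctsl (chromosome 13, 64359337 to 64370890, minus strand), was at 2418 and 629 CPM, 3.85-fold higher (2.95 to 5.11). Cathepsin Z, a carboxypeptidase also known as cathepsin X, is encoded by Ctsz (chromosome 2, 174427493 to 174439039, minus strand). Its levels were 3710 and 1337 CPM, 2.77-fold apart (2.31 to 3.36). All 3 genes were higher after injury under each alternative, but by less where deep cells carried no extra weight: with those of 5000 UMIs or more left out, Ctsb was 3.56-fold, Ctsl 2.09-fold and Ctsz 2.12-fold higher. Without the haemoglobin-rich cell they were 4.97-fold, 3.36-fold and 2.42-fold higher.

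Ctsa (chromosome 2, 164832873 to 164841032, plus strand) encodes a serine carboxypeptidase that also protects lysosomal beta-galactosidase and neuraminidase. Injured cells held 1359 CPM of it and uninjured cells 343 CPM (30 UMIs), a 3.96-fold difference (2.77 to 5.88), or 3.46-fold without the haemoglobin-rich cell.

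The other two cathepsins differed little. Ctss (chromosome 3, 95526786 to 95556403, plus strand) encodes cathepsin S, which stays active at neutral pH and trims the invariant chain of MHC class II. It was at 6766 CPM (6682 to 6850) and 4834 CPM (4385 to 5318), a ratio of 1.40 (1.27 to 1.54). The ratio was 1.22 without the haemoglobin-rich cell, and 0.984 (0.876 to 1.11) once cells of 5000 UMIs or more were left out. Ctsc (chromosome 7, 88278085 to 88310888, plus strand) encodes a dipeptidyl peptidase that activates granule serine proteases. It was at 502 CPM (480 to 526) after injury and 594 CPM (444 to 779) without, 1.18-fold lower (0.881 to 1.56). As injured over uninjured this is a ratio of 0.845, and it was 0.738 without the haemoglobin-rich cell.

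The mix of cathepsin transcripts therefore differed. Of all UMIs of the 7 genes, Ctss made up 39.5% in the uninjured library (36.5 to 42.5) and 18.6% in the injured one (18.4 to 18.8). Ctsd made up 25.9% (23.3 to 28.7) and 38.6% (38.3 to 38.8), and Ctsb 10.9% (9.11 to 12.9) and 20.9% (20.7 to 21.1). Ctsc made up 4.85% and 1.38%, while Ctsz kept a like share, 10.9% and 10.2%. Together the 7 genes took 1.23% of uninjured UMIs, or 1.40% without the haemoglobin-rich cell, and 3.64% of injured UMIs.

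Of the inhibitors, Cst3 (chromosome 2, 148871722 to 148875692, minus strand) went against the proteases. It was at 29212 CPM (28090 to 30367, 2556 UMIs) without injury and at 11961 CPM (11850 to 12073, 44231 UMIs) after it, 2.44-fold lower (2.35 to 2.54). As injured over uninjured this is a ratio of 0.409, and it was 0.358 without the haemoglobin-rich cell. In cells under 5000 UMIs it was 3.93-fold lower (3.75 to 4.13), at 10209 CPM against 40164 CPM. No single cell carried the uninjured level: the 5 cells with most Cst3 held 38.8% of its UMIs. Astrocytes also make cystatin C, and their markers summed to 1131 CPM without and 177 CPM after injury. Aqp4, Slc1a2 and Aldoc were at 0 without injury. The microglia markers P2ry12, Tmem119, Siglech, Sall1 and P2ry13 were also lower, at a sum of 144 CPM after injury and 1840 CPM without, and in each kind of cell described further on. The part of other cells, or of other kinds of macrophage, in the Cst3 level was not tested. Cst7 (chromosome 2, 150570415 to 150578944, plus strand), known from microglia around plaques and lesions, was at 421 CPM (400 to 442) after injury and had 1 UMI in the uninjured library. The ratio was 36.8 (6.60 to 1456), or 10.4 with cells thinned to 500 UMIs. Cstb (chromosome 10, 78425669 to 78427622, plus strand) was at 453 CPM (432 to 475) and 34.3 CPM (7.07 to 100, 3 UMIs), a ratio of 13.2 (4.51 to 64.1), or 7.03 if every cell had the same weight. The sizes of both ratios are poorly fixed, since they rest on so few uninjured UMIs.

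**Figure D1:**
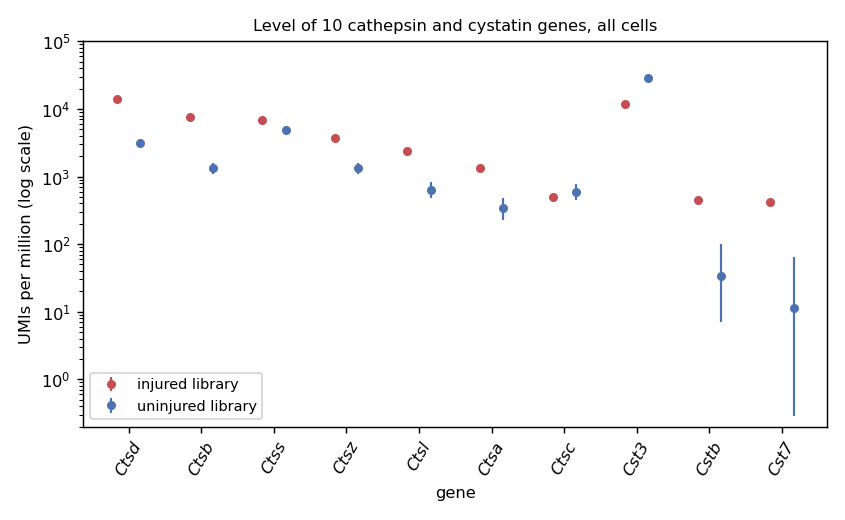
Level of each gene in the injured (red) and uninjured (blue) library, in CPM on a log axis, with exact 95% Poisson intervals. Ctsd, Ctsb, Ctsz, Ctsl, Ctsa, Cstb and Cst7 lie higher in the injured library, Cst3 lies lower (11961 against 29212), and Ctss and Ctsc lie close together.

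Detection followed the levels for Ctsb, Ctsd and Cst7, but not for Cst3 and Ctsc. The uninjured cells were slightly shallower, so every cell was also thinned to 500 UMIs (2 uninjured cells and no injured cell were too shallow). After thinning, 81.6% of 727 injured cells (78.6 to 84.3) held Ctsb, against 32.7% of 49 uninjured cells (19.9 to 47.5). Without thinning its shares were 90.5% and 56.9%. Ctsd was seen in 92.0% (89.8 to 93.9) and 65.3% (50.4 to 78.3) of thinned cells, and in 97.1% and 74.5% of cells before. For Cst3 the thinned shares were alike, 87.2% (84.6 to 89.5) and 89.8% (77.8 to 96.6). The inhibitor was thus found in most cells of both libraries, and its level per cell differed. Cst7 was seen in 18.2% (15.4 to 21.2) of thinned injured cells and in 1 of 49 uninjured cells, 2.04% (0.0517 to 10.9). Ctsc was seen in 18.6% (15.8 to 21.6) of thinned injured and 18.4% (8.76 to 32.0) of thinned uninjured cells.

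**Figure D2:**
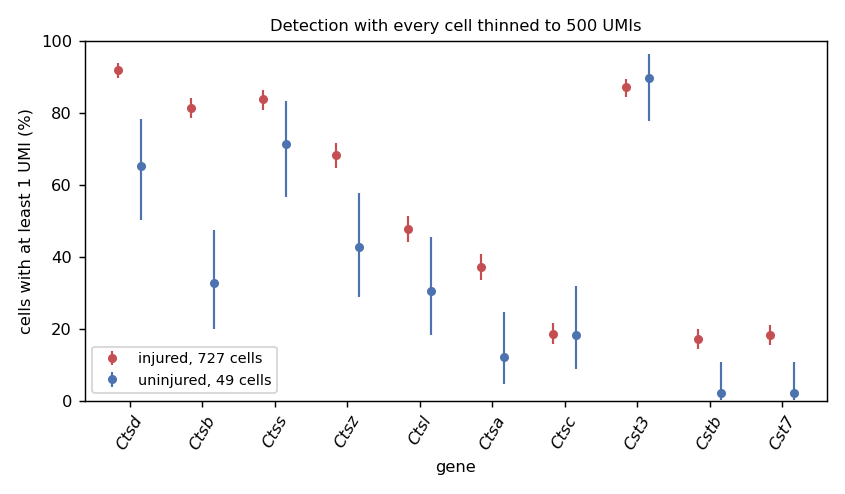
Share of cells with at least 1 UMI of each gene after thinning every cell to 500 UMIs, in percent, with exact 95% binomial intervals, for 727 injured (red) and 49 uninjured (blue) cells. Ctsb shows the widest gap (81.6% against 32.7%), while the intervals of Cst3, Ctsc, Ctsl and Ctss overlap between libraries.

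As a measure of free RNA, the 5 injured cells with UMIs of 2 or more Cd3 or T cell receptor genes were read, at a median depth of 5387 UMIs. Ctsd was seen in all 5, but at 413 CPM. Ctsb was seen in 4, at 230 CPM, and Cst3 in 3, at 230 CPM. T cells make some cathepsins themselves, so these levels are upper limits for free RNA in those cells. In the injured library as a whole the 3 genes were at 14034, 7607 and 11961 CPM, at a median depth of 1123 UMIs. Of Ctsl and Ctsz these 5 cells held no UMI, and of Ctsa, Ctsc, Ctss and Cst7 they held 1 each. By CPM Cstb came closest to this measure: these cells held 4 of its UMIs, 184 CPM, in 2 cells, against its injured level of 453 CPM. If free RNA adds a like number of UMIs to each cell, its share is larger in shallower cells than in these 5. Thinned to 500 UMIs each, the 727 injured cells held 148 UMIs of Cstb, 159 of Ctsc and 154 of Cst7. They held 4551 of Ctsd, 2043 of Ctsb and 3868 of Cst3. The part of free RNA in shallow cells was not tested.

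A ratio of inhibitor to protease transcripts within a cell does not depend on the library total. Cst3 was therefore set against the sum of the 5 cysteine cathepsins among the 10 genes (Ctsb, Ctsc, Ctsl, Ctss and Ctsz), a comparison chosen after the values had been seen. It left out Cst7 and Cstb, which were higher after injury, and Ctsh, which is outside the 10 genes. Protein was not measured and cystatin C is secreted, so inhibition of the proteases was not tested. The uninjured library held 3.35 Cst3 UMIs per cysteine cathepsin UMI (3.08 to 3.63) and the injured library 0.569 (0.563 to 0.576), which is 5.87-fold fewer (5.41 to 6.38). Without the 2 uninjured cells with most Cst3 the factor was 5.78. Over all cells, Cst3 outnumbered the cysteine cathepsins in 39 of 51 uninjured cells and was outnumbered in 9. It outnumbered them in 127 of 727 injured cells and was outnumbered in 557. In single cells with at least 10 UMIs of these 6 genes, Cst3 made up a median 79.2% of them in 38 uninjured cells (quartiles 75.5 and 85.4) and 37.2% in 592 injured cells (28.6 and 46.5). This minimum counts Cst3 itself, so cells rich in Cst3 pass it more easily. These ranges overlapped, from 13.6% to 95.8% in uninjured and from 0% to 86.7% in injured cells.

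**Figure D3:**
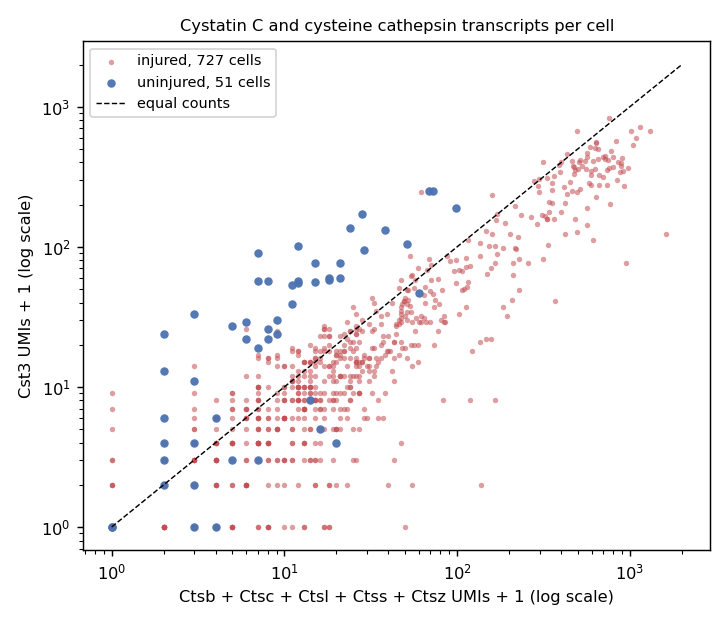
Cst3 UMIs against the summed UMIs of 5 cysteine cathepsin genes in each cell, both plus 1 on log axes, for 727 injured (red) and 51 uninjured (blue) cells; the dashed line marks equal counts. Of 51 uninjured cells 39 lie above the line, and of 727 injured cells 127 do.

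Uninjured cells held more Cst3 per cysteine cathepsin UMI at each depth that both libraries held, by a smaller factor in the deeper classes than in those under 1000 UMIs. In cells under 600 UMIs there were 5.20 Cst3 UMIs per cysteine cathepsin UMI in the uninjured (3.77 to 7.32) and 0.708 in the injured library (0.636 to 0.788). From 600 to 1000 UMIs the values were 4.75 and 0.616, from 1000 to 5000 UMIs 3.27 and 0.594, and from 5000 to 15000 UMIs 2.13 (1.81 to 2.50) and 0.491 (0.472 to 0.511), the former from 4 cells of which the haemoglobin-rich one adds 0 UMIs. The factors in these 4 depth classes were 7.34 (5.21 to 10.5), 7.71 (6.40 to 9.31), 5.50 (4.84 to 6.27) and 4.33 (3.67 to 5.12). No uninjured cell reached 15000 UMIs, where 99 injured cells had 0.572 Cst3 UMIs per cysteine cathepsin UMI.

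Cells were next divided into deep cells, with 5000 UMIs or more, and shallower cells in which the nuclear RNA Malat1 took at least 1% of UMIs (Malat1-rich) or less (Malat1-poor). The injured library had 144 deep, 91 Malat1-rich and 492 Malat1-poor cells, and the uninjured one 4, 17 and 30. Median mitochondrial shares were 2.36%, 10.7% and 0.503% in the injured and 3.82%, 3.11% and 8.11% in the uninjured kinds. The cells of 1 kind were thus not alike in the 2 libraries. The factor between the libraries in Cst3 per cysteine cathepsin UMI was 3.78 (3.22 to 4.45) in deep, 9.28 (7.81 to 11.0) in Malat1-rich and 7.52 (6.57 to 8.63) in Malat1-poor cells.

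Among deep cells 8 of the 10 genes were higher in the injured library, beside 49.8% of all genes compared, and none was lower, beside 15.0%. These cells were not matched in depth, with a median of 19206 UMIs in the injured and 9215 UMIs in the uninjured ones. Of the injured cells 99 reached 15000 UMIs, and no uninjured cell did. The part of depth in the ratios was not tested. Ctsd was at 14124 CPM against 1002 CPM, 14.1-fold higher (10.2 to 20.1), and Ctsb at 8099 against 974 CPM, 8.32-fold (5.98 to 11.9). Ctss joined the higher genes at 6990 and 3200 CPM, 2.18-fold (1.82 to 2.65). Cst7 had 1177 injured and 0 uninjured UMIs and was at least 4.77-fold higher, or at least 3.30-fold without the haemoglobin-rich cell, taking 3 UMIs as the limit over the uninjured cells. That cell was 1 of these 4. Without it 40.4% of all genes were higher and 25.1% lower. The same 8 genes were then higher, but Cst3 was 1.57-fold (1.44 to 1.72) and Ctsc 1.95-fold (1.26 to 2.88) lower, the Ctsd ratio was 9.74 (7.04 to 13.9), and that of Ctss was 1.51 (1.26 to 1.83). The 3 remaining cells were not uniform: they held 39182, 19651 and 5190 CPM of Cst3, and 2029, 1672 and 790 CPM of Ctsd. They held 7181, 6899 and 338 CPM of Ctss, so that 2 of the 3 were at the injured level of this gene.

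Malat1-poor cells, the largest kind, showed the same 7 higher genes and lower Cst3 as the whole libraries, beside 47.8% of all genes higher and 19.8% lower. Cst3 reached 52254 CPM (49510 to 55112) in the uninjured cells of this kind, where it ranked first among all genes. It was at 12390 CPM in the injured ones, 4.22-fold lower (3.98 to 4.47). Ctsb was 5.88-fold higher (4.00 to 9.01) and Ctsd 3.45-fold (2.86 to 4.21). Ctss was level, at 6704 CPM after injury (6493 to 6920) and 6898 CPM without (5924 to 7986). The myelin markers summed to 5183 CPM in these injured and 18998 CPM in these uninjured cells.

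Malat1-rich cells differed from the other kinds. Of the 10 genes 5 were higher, beside 36.4% of all genes, and 3 were lower, beside 30.7%. Ctsa counted as higher at a ratio of 1.63 on 13 uninjured UMIs, but its interval, 0.925 to 3.14, includes 1. Cst3 was at 3172 CPM (2914 to 3446) in the injured cells, the lowest of the 3 injured kinds, and at 27916 CPM in the uninjured cells, 8.80-fold more (7.87 to 9.85). The 17 uninjured cells were uneven, with a median of 3373 CPM and a highest cell of 88762 CPM, and the median of the 91 injured cells was 1441 CPM. By pooled UMIs Ctss was 1.57-fold (1.29 to 1.90) and Ctsc 2.90-fold (1.51 to 5.32) lower after injury. The median cells differed little in Ctss, with 1533 CPM after injury against 1639 CPM without, while the upper quartiles were 3282 and 6810 CPM. Ctss was seen in a larger share of the injured cells, 80.2% against 64.7%. Ctsd was 2.05-fold higher (1.72 to 2.47) and Ctsb 2.25-fold, at 4914 CPM (4592 to 5253) and 2186 CPM (1652 to 2839). Cst7 and Cstb count as higher only through the added 10 CPM: they had 22 and 16 injured and 0 uninjured UMIs, and their injured levels of 125 and 90.8 CPM are near the 117 CPM that 0 uninjured UMIs allow. With the divides at 3000 UMIs or at 2% Malat1, Ctsa and Ctsd were no longer counted as higher, which left Ctsb, Cst7 and Cstb. The microglia markers summed in this kind to 108 CPM after injury and 3397 CPM without, against 146 and 1141 CPM in deep and 149 and 1272 CPM in Malat1-poor cells. The astrocyte markers summed to 505 and 3241 CPM in it, and in these uninjured cells all but Slc1a3 were at 0.

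**Figure D4:**
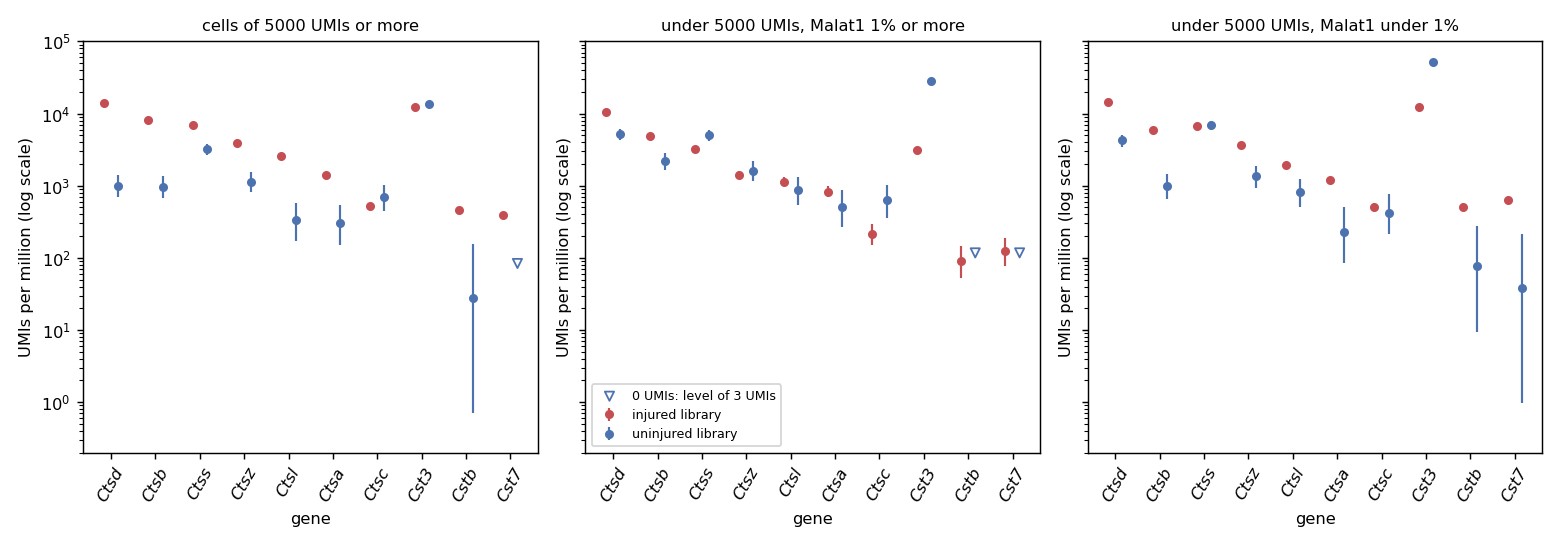
Level of each gene in the injured (red) and uninjured (blue) library, with a panel each for deep, Malat1-rich and Malat1-poor cells, in CPM on a log axis with exact 95% Poisson intervals; open triangles mark the level of 3 UMIs where a gene had 0. Ctsd and Ctsb lie higher after injury in all panels, and Cst3 differs most between libraries among the shallower cells.

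Within the injured library some protease levels were higher in deeper cells. Ctsb was at 4361 CPM in cells under 600 UMIs, 5029 from 600 to 1000, 6016 from 1000 to 5000, 6516 from 5000 to 15000 and 8364 in the 99 cells of 15000 or more. Ctss ran from 5057 to 7071 CPM in the same order. Cst3 lay between 9103 and 12954 CPM and Cst7 between 319 and 530 CPM, without such an order. In all 5 depth classes Cst3 stood above Ctss. Ctsd was above Cst3 in each, but under 600 UMIs their intervals overlapped (9137 to 10743 and 8930 to 10519 CPM). Ctsb and Ctss were level from 1000 to 15000 UMIs, while Ctsb was the higher in the deepest cells.

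Single deep injured cells varied widely around these levels. Ctsd had a median of 10907 CPM over 144 cells (quartiles 6959 and 18541, highest 68286), and Ctsb of 7496 CPM (4761 and 10219, highest 20442). Ctsl was the most uneven cathepsin, with a median of 1781 CPM and a highest cell of 23423 CPM, and 5 cells held 18.3% of its injured UMIs. Ctss was more even, with a median of 6829 CPM (5074 and 8814). Cst7 had a median of 202 CPM and was at 0 in 41 of the 144 cells, whereas Ctsd and Cst3 were each at 0 in 1 cell.

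Which genes went together was described by Spearman's rho of their levels over the 144 deep injured cells. These cells share 1 library and its free RNA, and depth itself had a rho of 0.03 to 0.31 with the 10 genes. T cell genes were seen in 2.08% of these cells, and cells with few Cst3 and cysteine cathepsin UMIs were kept. For example, a cell of 5387 UMIs held 3 Cst3 and 2 cysteine cathepsin UMIs. The part of such cells in the correlations was not tested. Ctsd, Ctsb, Ctsa and Ctsz formed the tightest set, with a rho of 0.83 for Ctsd and Ctsz, 0.81 for Ctsd and Ctsb, 0.80 for Ctsa and Ctsd, 0.77 for Ctsa and Ctsz, 0.71 for Ctsb and Ctsz and 0.68 for Ctsa and Ctsb. Ctsl was next to them, at 0.54 to 0.61 with each. Ctss had its highest rho with the inhibitor Cst3, at 0.71, and 0.25 with Ctsb, 0.31 with Ctsd and 0.33 with Ctsz. These lower links depended on the measure and the cells: Pearson's r over the same cells was 0.69, 0.60 and 0.74, and rho over the 583 injured cells under 5000 UMIs was 0.54, 0.55 and 0.52. The link of Ctss with Cst3 was 0.84 and 0.73 by these measures. Cst7 was related to genes of both, at 0.64 with Ctsz, 0.59 with Ctsd and Ctsa and 0.60 with Cst3, but at 0.47 with Ctss and 0.35 with Ctsb. In the 583 injured cells under 5000 UMIs Cst7 had 0.20 with Ctsz, 0.29 with Ctsd, 0.18 with Ctsa and 0.30 with Cst3. Over the 144 deep cells its known target Ctsc was not related to it, at 0.10. Ctsc had a rho of -0.22 to 0.10 with the other genes apart from Cstb, at -0.30. Cstb was at 0.36 with Ctsb and Ctsl and at -0.01 with Cst7.

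The links of Ctsd with Ctsz and Ctsb were found at both ends of the deep range, which are parts of the cells that gave the set. In the 45 cells of 5000 to 15000 UMIs the rho of Ctsd with Ctsz was 0.87 and with Ctsb 0.89, and in the 99 cells over 15000 UMIs 0.76 and 0.73. Ctss and Cst3 had 0.80 and 0.72. Cst7 and Ctsz had 0.64 and 0.60, and Cst7 and Cst3 0.55 and 0.53. Other links differed between the ranges: Ctss and Ctsb had 0.53 in the former and 0.03 in the latter cells, and Ctsc and Cstb 0.07 and -0.51. With every deep cell thinned to 5000 UMIs, Ctsd had 0.75 with Ctsz and 0.74 with Ctsb, and Ctss 0.65 with Cst3. In the 583 injured cells under 5000 UMIs, Ctsd had 0.71 with Ctsb and 0.58 with Ctsz. Ctsa had 0.45 with Ctsb, 0.47 with Ctsd and 0.37 with Ctsz there. Ctss had 0.54, 0.55 and 0.52 with the same genes, so in shallow cells Ctsa was not closer to them than Ctss.

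**Figure D5:**
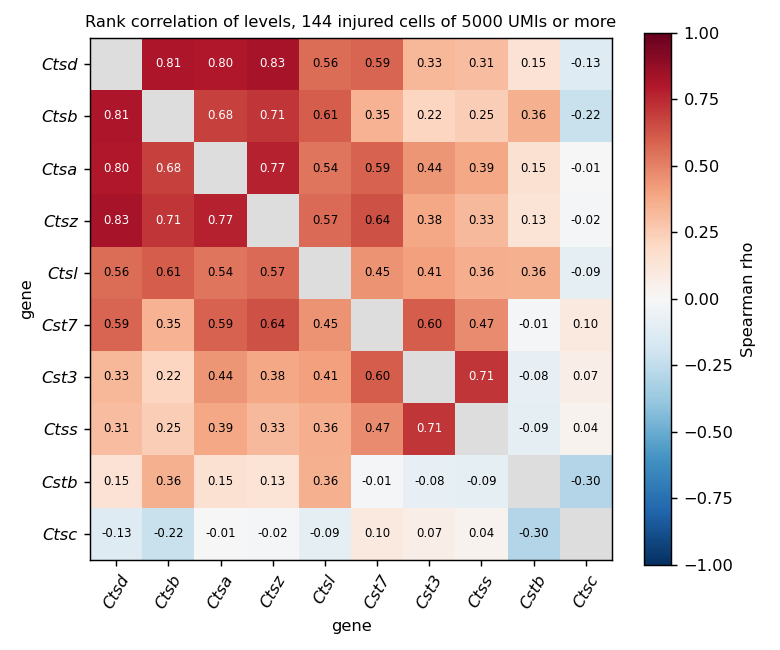
Spearman's rho between the levels of each pair of the 10 genes over 144 deep injured cells; red marks positive and blue negative values. Ctsd, Ctsb, Ctsa and Ctsz form a block at 0.68 to 0.83, Ctss and Cst3 are paired at 0.71, and Cstb and Ctsc stand apart.

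Promoters are shown for Ctsa and Ctsd, of the first set, and for Ctss and Cst3, the second pair. Of the first set, Ctsb had no window. The Ctsz window and another Ctsa window held none of the motifs named below and are not printed. The windows printed for the first set are thus those with a motif and do not stand for the set. The windows are from RefSeq (GRCm38.p6, the assembly also called mm10), run from 250 bases before to 50 after a start site, and are given 5′ to 3′ on the gene's strand. They lie at chr2:164833523-164833822 (plus strand, an internal start of Ctsa), chr7:142387778-142388077 (minus), chr3:95526536-95526835 (plus) and chr2:148875463-148875762 (minus). The Ctsd and Cst3 starts also lie inside the spans given above for these genes, so distances are from the RefSeq start used. Capitals mark CACGTG or TCACGTGA, the E-box core and the longer form known from lysosomal genes bound by TFEB, and ACTTCCTC, the reverse complement of GAGGAAGT, a core bound by the myeloid factor PU.1.
Ctsa: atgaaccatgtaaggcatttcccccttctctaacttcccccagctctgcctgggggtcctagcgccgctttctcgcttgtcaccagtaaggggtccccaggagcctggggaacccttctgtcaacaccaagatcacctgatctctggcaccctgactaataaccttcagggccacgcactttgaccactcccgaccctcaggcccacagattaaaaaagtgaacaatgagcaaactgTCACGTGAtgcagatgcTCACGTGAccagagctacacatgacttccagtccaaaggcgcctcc
Ctsd: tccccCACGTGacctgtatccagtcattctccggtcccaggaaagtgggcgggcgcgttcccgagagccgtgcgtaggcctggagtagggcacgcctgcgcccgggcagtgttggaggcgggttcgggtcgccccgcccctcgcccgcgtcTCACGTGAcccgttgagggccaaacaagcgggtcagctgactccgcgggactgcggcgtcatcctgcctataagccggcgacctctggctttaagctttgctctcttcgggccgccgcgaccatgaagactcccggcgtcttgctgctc
Ctss: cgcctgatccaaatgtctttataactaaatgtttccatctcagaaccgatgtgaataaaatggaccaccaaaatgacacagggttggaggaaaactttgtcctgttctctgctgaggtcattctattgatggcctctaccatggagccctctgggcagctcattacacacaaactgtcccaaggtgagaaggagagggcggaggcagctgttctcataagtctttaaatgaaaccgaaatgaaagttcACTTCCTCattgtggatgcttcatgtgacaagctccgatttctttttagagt
Cst3: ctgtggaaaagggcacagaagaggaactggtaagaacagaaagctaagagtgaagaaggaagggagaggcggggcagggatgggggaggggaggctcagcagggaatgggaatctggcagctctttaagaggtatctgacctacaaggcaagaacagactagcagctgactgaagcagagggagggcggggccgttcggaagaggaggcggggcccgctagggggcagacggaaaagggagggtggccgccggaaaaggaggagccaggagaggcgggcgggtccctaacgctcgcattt

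Of the 10 genes 8 had 9 windows in the table; Ctsb and Cstb had none. TCACGTGA, which reads the same on both strands and contains CACGTG, occurred in the windows of Ctsa and Ctsd and in 0.974% of all 32851 windows. In Ctsa it occurred at 2 places, beginning 13 bases before and 4 bases after the start site, and in Ctsd it began 99 bases before. The other Ctsa window held none. CACGTG occurred in the windows of Ctsa, Ctsd and Ctsl, and in 7.15% of all windows. GAGGAAGT on either strand occurred in Ctss, beginning 2 bases before the start site, and in Ctsc, and in 3.20% of all windows. The Cst3, Cst7 and Ctsz windows held none of these motifs. A match is a description of the letters and shows no binding.

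Genes outside the 10 were then ranked by likeness, as the rho of their levels over the same 144 deep injured cells, among 2667 genes seen in at least 50% of them. The 5 genes most like the mean of the 7 cathepsins were Tyrobp, an adaptor of myeloid receptors, at 0.77, its partner receptor gene Trem2 at 0.77, the lysosomal beta-glucuronidase gene Gusb at 0.76, Creg1, which encodes a secreted and lysosomal glycoprotein, at 0.76, and Syngr1, a vesicle protein gene, at 0.76. With cells thinned to 5000 UMIs these values were 0.61 to 0.72. The genes most like Cst7 were the matricellular gene Sparc at 0.80, Tyrobp at 0.75, the serine protease inhibitor gene Serpine2 at 0.72, Trem2 at 0.69 and the surface protein gene Bsg at 0.66. Those most like Cst3 were Sparc at 0.66, Tyrobp at 0.60, the lysosomal cholesterol carrier gene Npc2 at 0.58, Serpine2 at 0.57 and the membrane protein gene Itm2c at 0.55. Thinned values were lower, at 0.40 for Bsg, 0.43 for Npc2, 0.42 for Itm2c and 0.54 to 0.71 for the other genes of these latter lists.

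Other genes of the pathway were counted from lists, where a gene was counted if 5% or more of either library's cells held it. Of all 6680 genes that passed this filter 30.3% were higher and 25.3% lower, with a median log2 ratio of 0.09. Of 11 other cathepsins 4 were counted, and the median of their log2 ratios was -0.04: 1 was higher after injury, 1 was lower, and 2 lay between. Ctse, an endosomal aspartic protease gene of myeloid cells, was at 199 CPM and 68.6 CPM, a ratio of 2.91 (1.33 to 7.95). Ctsf was lower by the rule, at 83.0 CPM after injury and 149 CPM without, but the interval of its ratio, 0.322 to 1.06, includes 1. Ctsh, an aminopeptidase gene, was at 1047 and 743 CPM, and Ctso at 19.7 and 34.3 CPM.

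Of 24 other protease inhibitors 22 were in the table and only Serpinb6a, an intracellular serpin gene, was counted. It had 470 injured UMIs and 1 uninjured UMI, a ratio of 11.1 (1.99 to 440). The stefin A genes Csta1, Stfa1, Stfa2 and Stfa3, named outside the rule, had no UMI in either library; these are near-identical copies whose shared reads the counting may have dropped.

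Of 21 genes for cathepsin maturation, sorting and partners 20 were counted, and the median of their log2 ratios was 0.64: 11 were higher, 3 were lower, and 6 lay between. The lysosomal membrane genes Cd63 and Lamp1 were at 2408 and 320 CPM and at 1978 and 469 CPM, ratios of 7.52 (5.20 to 11.3) and 4.22 (3.11 to 5.89). Scpep1, a serine carboxypeptidase gene related to Ctsa, had a ratio of 5.21 (1.43 to 43.1) on 2 uninjured UMIs. Tfe3, which encodes a lysosomal transcription factor of the TFEB family, was 3.36-fold lower (1.70 to 6.04) on 12 uninjured UMIs. Lgmn, whose product legumain cleaves cathepsin precursors, lies outside the naming rule and was picked after its values were seen. It was at 1144 CPM after injury and 1646 CPM without, 1.44-fold lower (1.21 to 1.70), and so between by the rule.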

How the data were processed

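UMIs were counted in cells of dissected and digested optic nerve. The submitters' processing notes name mm10 as the build, and as tools Cell Ranger 1.3, Seurat 4.0.3 and bcl2fastq 2.17.1.14. The authors deposited 1 table of UMI counts per gene and cell, not normalized, whose second line gives the condition of each cell. Per the series' design text they kept 778 macrophages and microglia of 200 to 6500 genes. How these were selected is not stated in the labels, nor is the annotation release. The selection can set the shares of cell kinds. No doublet caller was run, so doublets among deep cells were not removed.

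UMIs were summed per library and scaled to a total of 1000000 (CPM). A 3' library gives 1 UMI per captured transcript end, so levels of different genes were compared without scaling by length. Levels carry exact Poisson, shares exact Clopper-Pearson and ratios exact conditional binomial intervals at 95%. Ratios of the Cst3 balance between libraries carry the exact conditional interval of an odds ratio. A count of 0 allows the level of 3 counts, which is 34.3 CPM in the uninjured and 0.811 CPM in the injured library. Intervals and these limits cover counting error only. The injured library had far more UMIs, so the uninjured counts set the precision. Of the gene rows, 26 had names turned into dates and were left out of the comparisons. For correlations, counts were scaled to the cell total and log-transformed. Positions are from GENCODE vM21. The scripts were tested on simulated data and used numpy 2.4.6, scipy 1.17.1, pandas 2.3.3 and matplotlib 3.10.9 in Python 3.11.15.

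The 10 genes, the lists and the divides between cell kinds were chosen with earlier results of these data known. Named beside the 10 are from each list the 4 counted genes (or fewer) whose log2 ratios were largest in size and the 5 genes most like each of 3 profiles; exceptions are marked. Alternatives were other pseudocounts, weights, totals, filters, folds, divides and subsets of cells.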

Additional observations from a re-analysis of the deposited data

How the results depend on the processing

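The 7 genes higher and the 1 lower in the injured library were the same under all 9 alternatives tried for these counts. Over the alternatives for single genes, the ratio of Ctsb lay between 3.56 and 6.30, of Ctsd between 2.90 and 5.14, of Cst3 between 0.254 and 0.421 and of Ctss between 0.984 and 1.48. The counts over all genes were less stable. Higher and lower genes numbered 798 and 583 with a pseudocount of 50 CPM, 786 and 462 at 2-fold, 203 and 291 of the 780 genes left with cells thinned to 500 UMIs, and 2982 and 3101 of 14407 with no filter on detection. In cells under 5000 UMIs 468 of 1845 genes were higher and 752 lower. Fewer or more genes were tested in the last 3. In Malat1-rich cells 3 of the 10 genes were higher with the divide at 3000 UMIs and 3 with Malat1 at 2%, against 5; the cause was not tested. The median correlation over the 45 pairs was 0.36 in deep injured cells, 0.21 over 15000 UMIs, 0.54 from 5000 to 15000 UMIs and 0.53 as Pearson's r; the cause was not tested. No paired analysis was possible because there was 1 library per group. The comparisons by depth of the Cst3 balance, and the correlations from 5000 to 15000 UMIs and with other totals, were added after the data were seen.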

Other observations

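Over the 144 deep injured cells, Cst7 had a rho of -0.40 with Lyz2, the lysozyme gene of macrophages, and 0.26 with the summed microglia markers. Cstb went the other way, with 0.23 and -0.28. Ctsc was the only one of the 10 genes with a positive rho with Mrc1, a mannose receptor gene of border macrophages, at 0.29, and its rho with the microglia markers was similar, at 0.25. The share of Malat1 had a rho of -0.48 with Cst7, -0.34 with Ctsd and -0.08 with Cstb. These values describe cells of 1 library.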
